A study of Homo sapiens with 18 samples.

Results

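CHL1 and A375 are human melanoma cell lines, and their transcriptomes were compared after both had been treated with the CDK4/6 inhibitor palbociclib for 6 days. The members were chosen by their labels alone: the 2 CHL1 libraries and the 2 A375 libraries labelled as CDK4/6 inhibition for 6 days, 4 of the 18 libraries of the series, all prepared in 1 library set. CHL1 carries wild-type BRAF and NRAS, whereas A375 carries a mutant BRAF. Both received 1 µM palbociclib, CHL1 in DMEM and A375 in RPMI-1640, so a difference between the lines and a difference between the media cannot be told apart. The control references were 2 CHL1 libraries from a 72-hour control, 2 A375 libraries from a 6-day control of the same library set and 2 A375 libraries from a 72-hour control of another set. All of these controls received DMSO alone. No 6-day control of CHL1 was analysed here, so in the CHL1 response the inhibitor and the time in culture cannot be told apart. The remaining 8 libraries, of 72-hour CDK4/6 inhibition and of PRMT5 inhibition in both lines, entered only the shared estimate of the spread.

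Palbociclib inhibits the kinases CDK4 and CDK6. RB, the pocket protein on which both kinases act, then keeps E2F target genes off, and cells that have RB stop in G1. Arrested tumour cells stay transcriptionally active and can secrete cytokines, proteases and matrix. Melanoma lines also range from a melanocytic state, with the transcription factor MITF and its pigment targets, to a dedifferentiated state with neural crest and mesenchymal genes, high AXL and EGFR and low pigment genes.

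The 4 libraries held 27099002 and 20509245 counts in CHL1 and 32749316 and 32290866 counts in A375, within the range of 16213475 to 37424081 counts over all 18. Across genes the replicates of the treated groups correlated at r = 0.989 in CHL1 and 0.990 in A375. The paper's methods describe 2 replicates grown per condition, while the labels do not say that replicates came from separate cultures. The p-values measure the spread between libraries, which may be technical. The 6-day A375 controls stood apart from the rest of the control libraries: their common biological coefficient of variation was 0.293, against 0.156 for the treated A375, 0.182 for the treated CHL1, 0.0934 for the CHL1 control and 0.103 for the 72-hour A375 control. Their genes of the highest GC content also sat lower relative to those of the lowest, by −1.74 and −0.54 on the log2 scale, while in the 4 treated libraries the same measure lay between −0.06 and 0.38. Genes named for a response or an interaction were therefore required to be called against both A375 controls unless stated. Of the 9 melanocytic markers 7 had an entry in the count table, and their summed level was 320 and 381 CPM (counts scaled to library size) in CHL1 and 251 and 212 CPM in A375, led in both lines by PAX3, S100B and MITF. Markers of other cell types were lower in sum. The 3 leukocyte markers with an entry summed to 17.5 and 17.6 CPM in CHL1 and 0.63 and 1.12 CPM in A375, with PTPRC the highest in both lines. The 3 endothelial markers summed to 10.2 and 7.16 CPM in CHL1 and 21.1 and 36.5 CPM in A375. The 6 epithelial markers summed to 4.99 and 5.44 CPM in CHL1, where KRT5 and KRT19 were at 0, and to 40.5 and 48.7 CPM in A375. The 6 fibroblast markers summed to 44.7 and 43.9 CPM in CHL1 and 32.1 and 34.5 CPM in A375. The part of other cells in the results was not tested, and in bulk RNA fewer cells of a type and less RNA per cell cannot be told apart.

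Most of the measured transcriptome differed between the treated lines. Log2 fold changes are given throughout as CHL1 minus A375, ± the standard error (SE), from edgeR's quasi-likelihood fit over all 18 libraries, so that a negative value means a higher level in A375. Adjusted p-values are Benjamini-Hochberg values over all 20705 genes, and a gene is called at an adjusted p under 0.05. Of the 20705 genes, 6056 were higher in CHL1 (29.2%) and 6602 were higher in A375 (31.9%), together 12658 genes (61.1%), with a median log2 fold change of −0.07 over all genes. These shares are the background for the counts that follow. Of 733 distinct genes on the 21 lists of identity, signalling, cell-cycle and secretion genes, 228 were higher in CHL1 and 318 were higher in A375.

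**Figure D1:**
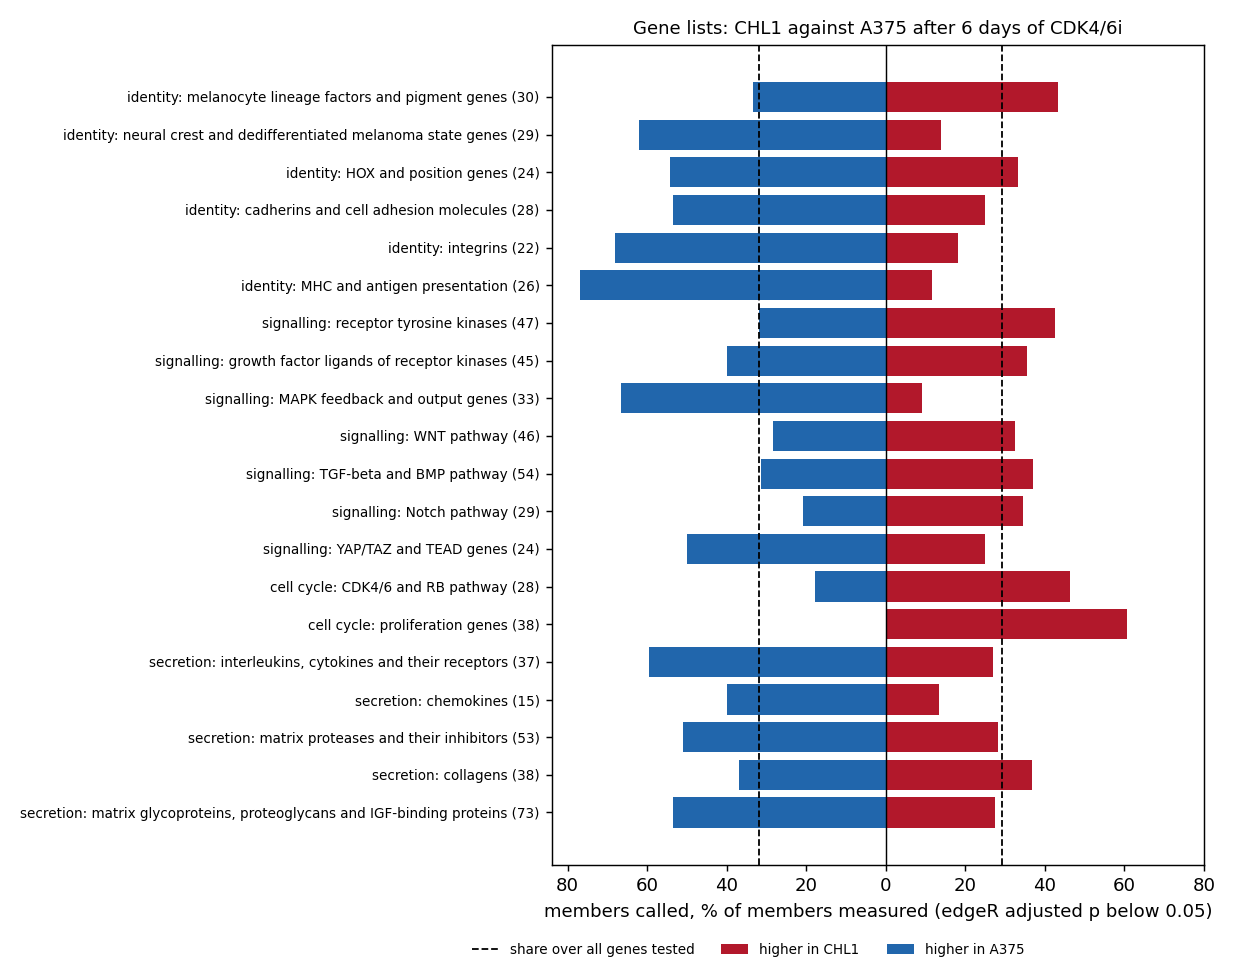
Number of members of each of 20 gene lists called higher in CHL1 or higher in A375 after 6 days of CDK4/6i (edgeR, adjusted p under 0.05), as a percentage of the members measured, beside the same percentages over all 20705 genes. The proliferation genes have 23 members higher in CHL1 and 0 higher in A375, while the MHC, integrin and MAPK lists lean toward A375.

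The genes with the largest differences were on in 1 line and at or near 0 counts in the other. Against a line with 0 counts in both libraries only a lower bound is given, computed from 3 counts per library, and the fitted log2 fold change of such a gene depends on the prior count. CXCL12, a chemokine that binds CXCR4, was at 318 and 253 CPM in CHL1 and 0 CPM in both A375 libraries, at least 3521-fold higher in CHL1. STS, the steroid sulfatase, was at 137 and 109 CPM in CHL1 and 0 CPM in both A375 libraries, at least 1517-fold higher in CHL1. UCHL1, a neuronal ubiquitin hydrolase, was at 228 and 193 CPM in CHL1 and 0 and 0.0267 CPM in A375, a ratio of 15729-fold (95% counting interval 2822 to 621327). The other 7 genes at the head of the CHL1 side were AMER2 and DACT2, which act in WNT signalling, SEZ6L, the amino acid transporter SLC6A19, EFS, the calcium pump regulator SLN and the gap junction gene GJD2.

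On the A375 side, IL13RA2, a decoy receptor for IL-13, was at 0 CPM in both CHL1 libraries and 659 and 579.6 CPM in A375, at least 4811-fold higher in A375. The chromatin protein HMGA2 was at 0 CPM in both CHL1 libraries and 417 and 447 CPM in A375, at least 3355-fold higher, and the cancer-testis antigen MAGEA4 was at 0 CPM in both CHL1 libraries and 544 and 440.5 CPM in A375, at least 3824-fold higher. Both A375 libraries were high and both CHL1 libraries at 0 for each of these genes. PRAME, also a tumour antigen, was at 0 CPM in both CHL1 libraries and 124 and 121 CPM in A375. The remaining 6 were HLA-DRA, the matrix link protein HAPLN1, the transcription factor TFAP2B, the vitamin A transporter STRA6, the myosin MYH13 and the carboxypeptidase CPA4, and the A375 replicates of HAPLN1 (197 and 89.7 CPM) and TFAP2B (174 and 77.7 CPM) differed by more than those of the others.

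Melanocyte genes were divided between the lines. Of 30 melanocyte lineage and pigment genes with an entry, 13 were higher in CHL1 and 10 were higher in A375 (median log2 fold change 0.25). MITF, the master regulator of the lineage, was at 81.9 and 81.3 CPM in CHL1 and 88.5 and 81.3 CPM in A375, and these groups overlapped (log2 fold change -0.06 ± 0.18, adjusted p = 0.80). IRF4, a transcription factor that works with MITF on pigmentation genes, was at 269.6 and 236 CPM in CHL1 and 0.219 and 0.347 CPM in A375 (log2 fold change 9.78 ± 0.33, adjusted p = 9.5e-14). DCT, which converts dopachrome on the way to eumelanin, was at 91.7 and 63.2 CPM in CHL1 and 0.874 and 1.79 CPM in A375 (log2 fold change 5.85 ± 0.32, adjusted p = 3.7e-11). OCA2, a melanosomal ion transporter, was at 419 and 782 CPM in CHL1 and 24.6 and 19.7 CPM in A375 (log2 fold change 4.76 ± 0.38, adjusted p = 4.5e-09). TFAP2A, a neural crest and melanocyte transcription factor, was at 110.2 and 108 CPM in CHL1 and 11.1 and 8.60 CPM in A375 (log2 fold change 3.46 ± 0.25, adjusted p = 9.4e-10). For these 4 genes, chosen for the size of their difference, every CHL1 library was above every A375 library. The share of all genes without such an overlap was not computed.

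Other pigment-cell genes went the opposite way. GPNMB, a melanosomal glycoprotein, was at 0.496 and 0.477 CPM in CHL1 and 345 and 263 CPM in A375 (log2 fold change -9.27 ± 0.35, adjusted p = 2.6e-13). MLPH, which links melanosomes to their transport motor, was at 0.0381 and 0.0954 CPM in CHL1 and 10.1 and 11.9 CPM in A375, a ratio of 173-fold (95% counting interval 59.1 to 843) in favour of A375. BCL2A1, an anti-apoptotic gene, was at 0.0381 and 0 CPM in CHL1 and 2.92 and 2.46 CPM in A375, 127-fold (95% counting interval 22.5 to 5037) higher in A375. TYR, the rate-limiting enzyme of melanin synthesis, was low in both lines, at 0 and 0.0477 CPM in CHL1 and 2.13 and 0.908 CPM in A375, a ratio of 71.4-fold (95% counting interval 12.6 to 2846) (adjusted p = 7.3e-04). PMEL, which builds the melanosome fibrils, was at 1.33 and 1.53 CPM in CHL1 and 1.75 and 2.43 CPM in A375, and this difference did not pass the test (adjusted p = 0.20). SOX10 and MLANA had no entry in the count table and were not analysed here.

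Promoter sequence is shown for 3 of these pigment genes, 1 higher in CHL1 and 2 higher in A375, because all 3 hold the E-box type that MITF is known to bind. The stretches are the 250 bases before the RefSeq start of each gene (GRCh38.p14), 5′ to 3′ on the gene's strand, with the E-box in capitals. OCA2 lies on the minus strand at chr15:28099316-28099565, GPNMB on the plus strand at chr7:23246525-23246774 and TYR on the plus strand at chr11:89177625-89177874.
OCA2: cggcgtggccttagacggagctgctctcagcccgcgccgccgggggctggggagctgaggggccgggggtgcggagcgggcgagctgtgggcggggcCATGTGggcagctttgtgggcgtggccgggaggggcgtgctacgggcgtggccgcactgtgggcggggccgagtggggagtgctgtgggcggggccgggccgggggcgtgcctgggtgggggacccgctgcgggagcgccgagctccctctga
GPNMB: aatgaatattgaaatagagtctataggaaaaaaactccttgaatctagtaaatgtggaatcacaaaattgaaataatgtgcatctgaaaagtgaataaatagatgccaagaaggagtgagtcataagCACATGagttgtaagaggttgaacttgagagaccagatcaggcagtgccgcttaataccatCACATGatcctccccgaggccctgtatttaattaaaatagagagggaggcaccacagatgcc
TYR: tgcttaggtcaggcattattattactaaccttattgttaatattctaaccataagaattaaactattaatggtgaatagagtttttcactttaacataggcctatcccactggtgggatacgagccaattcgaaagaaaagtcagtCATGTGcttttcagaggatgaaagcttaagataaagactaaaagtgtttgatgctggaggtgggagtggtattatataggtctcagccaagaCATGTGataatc
The letters searched were CATGTG on either strand (CACATG on the other) and CACGTG, which reads the same on both strands and is counted once, in windows of 250 bases before to 50 after the start. Of the 23 melanocyte genes with a window, 13 held a match (56.5%), against 17.9% of all 27305 windows, among them 5 of the 11 genes higher in CHL1, 5 of the 7 genes higher in A375, and 3 genes that were not called, GPR143, MC1R and EDNRB. A match describes the letters and not a site in use. The list was drawn up to hold pigment genes, MITF targets among them, so its share is no result about these lines.

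Neural crest and dedifferentiation genes were mostly higher in A375. Of 29 with an entry, 4 were higher in CHL1 and 18 were higher in A375 (median log2 fold change −2.18). In both comparisons of the controls 17 of these 18 were also higher in A375, against 54.4% of all genes higher in A375. AXL, a receptor kinase typical of the dedifferentiated state, was at 29.3 and 27.3 CPM in CHL1 and 182 and 213 CPM in A375 (log2 fold change -2.80 ± 0.17, adjusted p = 6.8e-11). PRRX1, a mesenchymal transcription factor, was at 2.33 and 2.10 CPM in CHL1 and 212 and 161 CPM in A375 (log2 fold change -6.39 ± 0.33, adjusted p = 1.1e-11). S100A4, a calcium-binding protein of motile cells, was at 1.11 and 1.14 CPM in CHL1 and 150.4 and 101 CPM in A375 (log2 fold change -6.80 ± 0.35, adjusted p = 9.8e-12). Both A375 libraries were above both CHL1 libraries for these 3 genes, of which PRRX1 and S100A4 were chosen for the size of their difference. How many of all genes separate in this way was not computed. The 4 genes higher in CHL1 were the transcription factor genes SNAI2 at 20.8 and 19.7 CPM in CHL1 and 2.76 and 2.46 CPM in A375 (log2 fold change 2.95 ± 0.28, adjusted p = 4.3e-08) and ZEB2 at 229 and 229 CPM in CHL1 and 72.1 and 77.8 CPM in A375 (log2 fold change 1.61 ± 0.20, adjusted p = 1.2e-06), the neural crest and stem cell filament NES (log2 fold change 2.14 ± 0.21) and the kinase NUAK1 (2.33 ± 0.20). SNAI2 and ZEB2 are known from melanocytes as well as from the neural crest. NGFR, a marker of neural crest-like melanoma cells, was at 0.724 and 1.76 CPM in CHL1 and 0.792 and 2.94 CPM in A375, and the groups overlapped (adjusted p = 0.45).

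**Figure D2:**
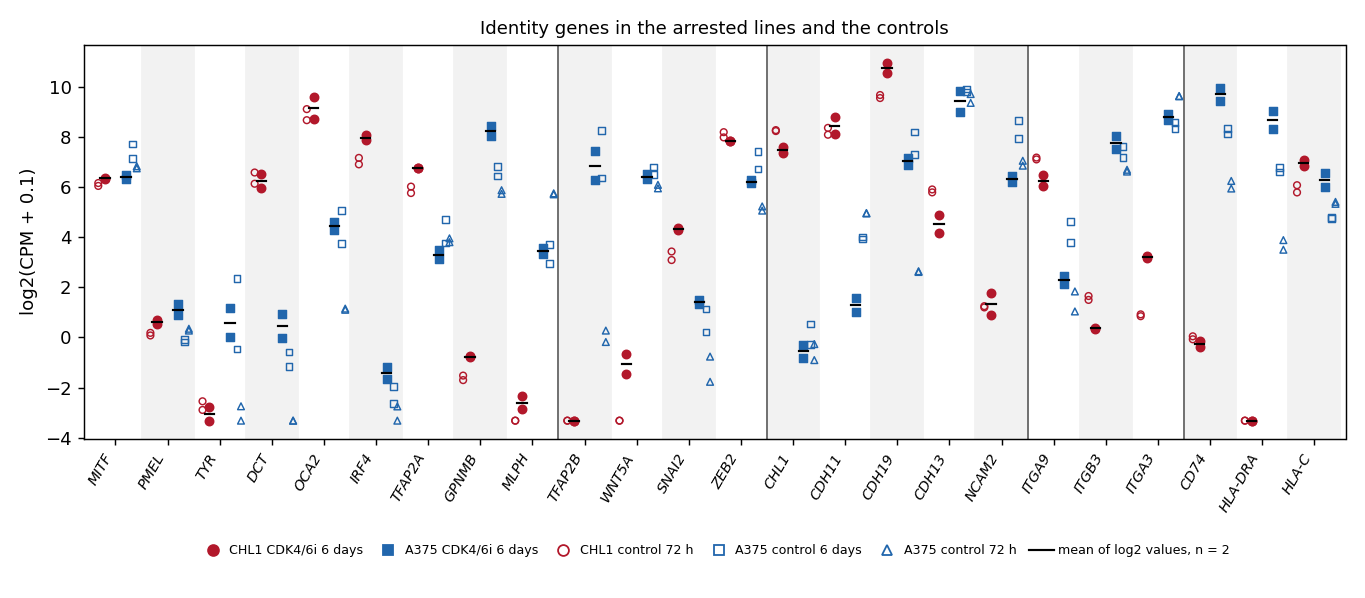
CPM per library, on a log2 scale after adding 0.1, of 24 identity genes in the 2 CHL1 and 2 A375 libraries after 6 days of CDK4/6i, and in the 3 control groups (open symbols), with the mean of the 2 log2 values of each treated line as a bar. MITF sits at 81.3 to 88.5 CPM in all 4 libraries, while IRF4 and GPNMB separate the lines in opposite directions.

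Position genes also told the lines apart. Of 24 HOX and other position genes with an entry, 8 were higher in CHL1 and 13 were higher in A375 (median log2 fold change −0.93, or −0.51 with genes at 0 set to their bounds). The hindlimb factor PITX1 was at 11.0 and 10.7 CPM in CHL1 and 0.437 and 0.641 CPM in A375 (log2 fold change 4.31 ± 0.40, adjusted p = 2.9e-08). MEIS1, a HOX cofactor, was at 82.2 and 77.0 CPM in CHL1 and 26.2 and 24.7 CPM in A375 (log2 fold change 1.65 ± 0.19, adjusted p = 4.8e-07). On the A375 side, HOXB13 was at 0.381 and 1.19 CPM in CHL1 and 10.3 and 8.58 CPM in A375 (log2 fold change -3.63 ± 0.36, adjusted p = 7.1e-08) and HOXB2 at 1.30 and 1.19 CPM in CHL1 and 8.69 and 9.16 CPM in A375 (log2 fold change -2.83 ± 0.27, adjusted p = 3.4e-08). HOXA13 and EN1 were at 0 in both CHL1 libraries and at 1.86 and 1.87 CPM and at 1.94 and 1.15 CPM in A375, at least 14.5-fold and at least 12.0-fold higher. HOXB7 was higher in CHL1 (log2 fold change 1.46 ± 0.18), as was TBX15 (1.68 ± 0.52, adjusted p = 0.0090, and 0.054 without A375 replicate 1).

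Several adhesion genes were on in 1 line and near 0 in the other. Of 28 cadherins and adhesion molecules, 7 were higher in CHL1 and 15 were higher in A375 (median −1.06). The neural adhesion gene that is itself called CHL1 was at 198 and 166 CPM in CHL1 and 0.464 and 0.721 CPM in A375 (log2 fold change 8.25 ± 0.32, adjusted p = 2.9e-13). CDH11, a mesenchymal cadherin, was at 443 and 276 CPM in CHL1 and 2.92 and 1.90 CPM in A375 (log2 fold change 7.22 ± 0.29, adjusted p = 3.9e-13). CDH19, a cadherin of the Schwann cell and melanocyte lineage, was at 2019.7 and 1511 CPM in CHL1 and 119.9 and 145 CPM in A375 (log2 fold change 3.74 ± 0.28, adjusted p = 1.3e-09). CDH13, a cadherin with a lipid anchor in place of a membrane span, ran the opposite way at 17.8 and 29.6 CPM in CHL1 and 519 and 917 CPM in A375 (log2 fold change -4.92 ± 0.31, adjusted p = 1.1e-10), as did NCAM2 at 1.75 and 3.34 CPM in CHL1 and 73.5 and 87.9 CPM in A375 (log2 fold change -5.01 ± 0.30, adjusted p = 7.8e-11). ICAM1, the ligand of leukocyte integrins, was at 0.0381 and 0 CPM in CHL1 and 11.1 and 8.60 CPM in A375, 465-fold (95% counting interval 83.3 to 18409) higher in A375. CDH6 was also called higher in A375, but its A375 replicates differed from each other, at 0.710 and 3.66 CPM.

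Of 22 integrins, 4 were higher in CHL1 and 15 were higher in A375 (median −1.39). ITGA9, a receptor chain for tenascin and osteopontin, was at 66.2 and 89.5 CPM in CHL1 and 5.44 and 4.25 CPM in A375 (log2 fold change 4.01 ± 0.28, adjusted p = 5.9e-10). ITGA7, a laminin receptor chain, was at 129 and 163 CPM in CHL1 and 43.7 and 36.4 CPM in A375 (log2 fold change 1.87 ± 0.22, adjusted p = 7.9e-07). ITGAV pairs with ITGB3 to bind vitronectin, and the partners went opposite ways: ITGAV was at 68.8 and 86.4 CPM in CHL1 and 22.7 and 26.3 CPM in A375 (log2 fold change 1.66 ± 0.17, adjusted p = 1.0e-07) and ITGB3 at 1.18 and 1.19 CPM in CHL1 and 261 and 185 CPM in A375 (log2 fold change -7.55 ± 0.26, adjusted p = 1.0e-13). ITGA3, a laminin receptor chain, was at 9.57 and 8.82 CPM in CHL1 and 482 and 416 CPM in A375 (log2 fold change -5.61 ± 0.20, adjusted p = 1.6e-13). The collagen receptor chain ITGA11 was at 0.305 and 0.429 CPM in CHL1 and 6.18 and 12.1 CPM in A375 (log2 fold change -4.64 ± 0.43, adjusted p = 3.4e-08). ITGAX, better known from myeloid cells, was at 0.0381 and 0.0477 CPM in CHL1 and 16.2 and 8.55 CPM in A375, 291-fold (95% counting interval 80.4 to 2409.7) higher in A375.

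The class II antigen presentation genes named here were at or near 0 in CHL1 and present in A375. Of 26 MHC and antigen presentation genes, 3 were higher in CHL1 and 20 were higher in A375 (median −2.32). HLA-DRA, the alpha chain of HLA-DR, was at 0 CPM in both CHL1 libraries and 521 and 325 CPM in A375, at least 3285-fold higher in A375. CD74, which guides class II molecules through the cell, was at 0.800 and 0.668 CPM in CHL1 and 999 and 697 CPM in A375 (log2 fold change -10.15 ± 0.34, adjusted p = 9.5e-14). HLA-DOA and HLA-DQB1 were at 0 in both CHL1 libraries and at 24.6 and 14.8 CPM and at 4.75 and 2.32 CPM in A375. CIITA, the class II transactivator, was chosen after its values were seen and was at 0.648 and 1.34 CPM in CHL1 and 310.2 and 261 CPM in A375 (log2 fold change -8.20 ± 0.30, adjusted p = 1.5e-13). The 3 exceptions were the peptide-loading gene TAPBP at 112 and 124 CPM in CHL1 and 72.6 and 66.0 CPM in A375 (log2 fold change 0.77 ± 0.16, adjusted p = 3.6e-04), HLA-C at 117 and 135 CPM in CHL1 and 94.3 and 64.5 CPM in A375 (log2 fold change 0.67 ± 0.22, adjusted p = 0.013) and HLA-F at 3.54 and 4.96 CPM in CHL1 and 3.20 and 2.00 CPM in A375 (log2 fold change 0.70 ± 0.29, adjusted p = 0.045), and both calls were lost without A375 replicate 2 (adjusted p = 0.14 for HLA-C and 0.30 for HLA-F) or without CHL1 replicate 2 (0.074 and 0.29). HLA genes share reads with near-identical copies, so their levels are uncertain. In A375, 17 of the 26 were higher after CDK4/6i than in both A375 controls, against 9.2% of all genes, and in CHL1 5 were higher than in its control, against 8.13% of all genes.

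Receptor tyrosine kinases were divided between the lines. Of 47 with an entry, 20 were higher in CHL1 and 15 were higher in A375 (median 0.06). The CHL1 share was 42.6%, against 29.2% of all genes, and the A375 share was 31.9%, the same as over all genes. FGFR2, a receptor for fibroblast growth factors, was at 134 and 149 CPM in CHL1 and 0.464 and 0.561 CPM in A375 (log2 fold change 8.10 ± 0.35, adjusted p = 9.5e-13). MERTK, a receptor for GAS6 and PROS1, was at 145 and 177 CPM in CHL1 and 2.79 and 2.48 CPM in A375 (log2 fold change 5.93 ± 0.24, adjusted p = 4.5e-13), and the ephrin receptors EPHB6 at 79.6 and 106 CPM in CHL1 and 0.546 and 1.55 CPM in A375 and EPHA5 at 65.4 and 47.0 CPM in CHL1 and 2.68 and 2.56 CPM in A375 followed it (log2 fold changes 6.46 ± 0.38 and 4.42 ± 0.39). A375 carried EGFR at 46.8 and 63.3 CPM, against 0.457 and 0.525 CPM in CHL1 (log2 fold change -6.80 ± 0.26, adjusted p = 2.8e-13). The ephrin receptor EPHB2 was at 0.267 and 0.429 CPM in CHL1 and 95.1 and 109 CPM in A375 (log2 fold change -8.21 ± 0.31, adjusted p = 4.9e-13), and EPHA4 was at 0.0381 and 0.0954 CPM in CHL1 and 40.1 and 47.2 CPM in A375, 687-fold (95% counting interval 235 to 3335) higher in A375. PDGFRA was at 0 in both CHL1 libraries and at 0.902 and 1.66 CPM in A375, at least 9.94-fold higher. No CHL1 library overlapped an A375 library for these 8 receptors, which were chosen for the size of their difference. The share of all genes without overlap was not computed.

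Ligands of these receptors were divided too. Of 45 with an entry, 16 were higher in CHL1 and 18 were higher in A375 (median −0.11). FGF9 was at 69.9 and 45.2 CPM in CHL1 and 0 and 0.0267 CPM in A375, 4362-fold (95% counting interval 782 to 172336) higher in CHL1, the line with the higher FGFR2. The platelet-derived ligand PDGFB was at 55.1 and 62.4 CPM in CHL1 and 0.328 and 0.721 CPM in A375 (log2 fold change 6.79 ± 0.37, adjusted p = 1.7e-11). Its receptors did not follow it, since PDGFRA, given above, was higher in A375 and PDGFRB averaged 6.65 CPM in CHL1 and 7 CPM in A375. Signalling between a ligand and a receptor of the same line was not tested. NRG1, the ligand of ERBB3 and ERBB4, was at 400.4 and 292 CPM in CHL1 and 6.78 and 22.1 CPM in A375 (log2 fold change 4.58 ± 0.38, adjusted p = 6.6e-09). TGFA, a ligand of EGFR, was at 31.3 and 21.4 CPM in CHL1 and 1156 and 833 CPM in A375 (log2 fold change -5.24 ± 0.29, adjusted p = 1.9e-11), higher in the line with the higher EGFR. GDNF, the ligand of the RET complex, was at 0.0381 and 0 CPM in CHL1 and 28.4 and 53.5 CPM in A375, 1938-fold (95% counting interval 348 to 76585) higher in A375. FGF13, on this list by its family but a non-secreted protein and not a classical receptor ligand, was at 0.762 and 1.19 CPM in CHL1 and 40.6 and 44.1 CPM in A375 (log2 fold change -5.45 ± 0.37, adjusted p = 4.0e-10). HGF, the ligand of MET, was at 0.191 and 0.0477 CPM in CHL1 and 74.3 and 28.6 CPM in A375 (log2 fold change -8.61 ± 0.95, adjusted p = 4.5e-07). The A375 replicates of NRG1 and HGF differed widely without reaching the CHL1 values. NRTN was higher in CHL1 (log2 fold change 2.94 ± 0.35).

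Output genes of the MAPK pathway were mostly higher in A375. Mutant BRAF drives this pathway, but its part in the difference was not tested. It cannot be told apart from the other differences between the lines and their media. Of 33 with an entry, 3 were higher in CHL1 and 22 were higher in A375 (median −1.58). In both control comparisons 15 of the 22 were also higher in A375, against 54.4% of all genes higher in A375. DUSP6, a phosphatase that feeds back on ERK, was at 105 and 111 CPM in CHL1 and 332 and 268 CPM in A375 (log2 fold change -1.48 ± 0.23, adjusted p = 2.4e-05). The feedback inhibitor SPRY4 was at 15.7 and 16.9 CPM in CHL1 and 319 and 223 CPM in A375 (log2 fold change -4.06 ± 0.26, adjusted p = 1.5e-10), DUSP10 at 9.61 and 8.49 CPM in CHL1 and 148 and 156 CPM in A375 (log2 fold change -4.07 ± 0.20, adjusted p = 6.2e-12) and the membrane protein EMP1 at 0.457 and 0.239 CPM in CHL1 and 105 and 108 CPM in A375 (log2 fold change -8.20 ± 0.34, adjusted p = 6.4e-13). PTGS2, the inducible cyclooxygenase, was at 2.21 and 1.24 CPM in CHL1 and 34.6 and 36.6 CPM in A375 (log2 fold change -4.34 ± 0.36, adjusted p = 5.4e-09). The 3 members higher in CHL1 were the growth regulator MYC at 143 and 125 CPM in CHL1 and 22.2 and 12.6 CPM in A375 (log2 fold change 2.94 ± 0.21, adjusted p = 1.0e-09), FOS, a subunit of AP-1, at 16.7 and 16.5 CPM in CHL1 and 4.51 and 4.73 CPM in A375 (log2 fold change 1.84 ± 0.26, adjusted p = 6.1e-06) and the phosphatase DUSP2 at 51.0 and 36.3 CPM in CHL1 and 4.04 and 3.55 CPM in A375 (log2 fold change 3.52 ± 0.34, adjusted p = 4.3e-08).

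**Figure D3:**
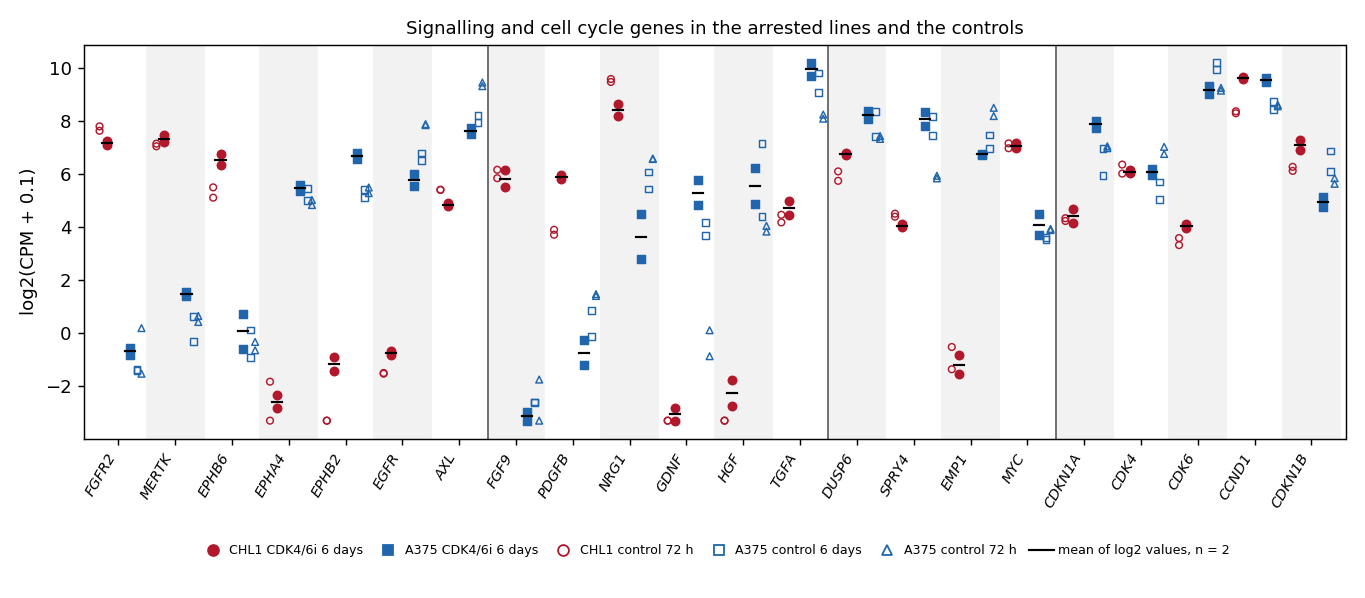
CPM per library, on a log2 scale after adding 0.1, of 22 signalling and cell-cycle genes in the 2 CHL1 and 2 A375 libraries after 6 days of CDK4/6i, and in the 3 control groups (open symbols), with the mean of the 2 log2 values of each treated line as a bar. FGFR2 and FGF9 are high in CHL1 and low in A375, EGFR and EPHB2 the reverse, and CCND1 lies between 702 and 797 CPM in all 4 libraries.

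In the WNT pathway, 15 of 46 genes were higher in CHL1 and 13 were higher in A375 (median −0.14). WNT5A, a ligand of the non-canonical branch, was at 0.267 and 0.525 CPM in CHL1 and 80.4 and 91.5 CPM in A375 (log2 fold change -7.79 ± 0.30, adjusted p = 5.2e-13). WNT10B, a canonical ligand, was at 0.496 and 0.191 CPM in CHL1 and 3.85 and 3.71 CPM in A375 (log2 fold change -3.39 ± 0.54, adjusted p = 2.6e-05). The receptor FZD3 was at 1099 and 489 CPM in CHL1 and 26.4 and 18.9 CPM in A375 (log2 fold change 5.13 ± 0.38, adjusted p = 1.6e-09), with CHL1 replicates that differed widely but did not overlap A375, whereas the R-spondin receptor LGR6 was higher in A375 (-4.02 ± 0.56). The receptor FZD9 was at 0.0762 and 0 CPM in CHL1 and 0.902 and 1.18 CPM in A375, 24.5-fold (95% counting interval 6.57 to 206) higher in A375. The antagonists NKD2, at 20.5 and 21.5 CPM in CHL1 and 0.601 and 1.04 CPM in A375 (log2 fold change 4.66 ± 0.33, adjusted p = 6.7e-10), SFRP4 (4.28 ± 0.40) and APCDD1, at 2.40 and 3.34 CPM in CHL1 and 0 CPM in both A375 libraries (at least 35.4-fold), were higher in CHL1.

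The TGF-beta and BMP list was divided, with 20 of 54 genes higher in CHL1 and 17 higher in A375 (median 0.12). ID4 and ID2 encode inhibitors of helix-loop-helix factors and are BMP targets. ID4 was at 522 and 397 CPM in CHL1 and 1.17 and 0.454 CPM in A375 (log2 fold change 9.14 ± 0.58, adjusted p = 3.4e-10) and ID2 at 44.4 and 41.6 CPM in CHL1 and 3.25 and 2.40 CPM in A375 (log2 fold change 3.93 ± 0.23, adjusted p = 6.2e-11). The receptor BMPR1B was at 116 and 129 CPM in CHL1 and 10.6 and 14.7 CPM in A375 (log2 fold change 3.28 ± 0.19, adjusted p = 3.1e-11) and SMAD9, a SMAD of the BMP branch, at 104 and 121 CPM in CHL1 and 3.58 and 2.89 CPM in A375 (log2 fold change 5.12 ± 0.27, adjusted p = 1.3e-11). The BMP4 ligand went against these at 0.0381 and 0 CPM in CHL1 and 15.9 and 18.7 CPM in A375, 817-fold (95% counting interval 146 to 32311) higher in A375. TGFBR2, the TGF-beta receptor, was at 15.2 and 18.1 CPM in CHL1 and 109 and 99.0 CPM in A375 (log2 fold change -2.64 ± 0.16, adjusted p = 1.2e-10) and SMAD3, which carries its signal, at 11.8 and 20.4 CPM in CHL1 and 139 and 202 CPM in A375 (log2 fold change -3.41 ± 0.24, adjusted p = 8.9e-10).

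Among 29 Notch pathway genes, 10 were higher in CHL1 and 6 were higher in A375 (median 0.23). Among the ligands, DLL1 was at 9.30 and 10.9 CPM in CHL1 and 0.246 and 0.321 CPM in A375, DLL3 at 50.2 and 46.0 CPM in CHL1 and 1.37 and 1.42 CPM in A375 and JAG2 at 9.45 and 8.87 CPM in CHL1 and 0.820 and 0.668 CPM in A375 (log2 fold changes 5.13 ± 0.42, 5.11 ± 0.29 and 3.62 ± 0.31), while JAG1 was at 4.92 and 5.87 CPM in CHL1 and 59.3 and 55.3 CPM in A375 (log2 fold change -3.41 ± 0.23, adjusted p = 3.3e-10). The targets differed too, with HES4 at 18.8 and 13.8 CPM in CHL1 and 0 and 0.134 CPM in A375 (log2 fold change 7.82 ± 0.51, adjusted p = 2.4e-10) and HES1 at 3.51 and 3.34 CPM in CHL1 and 15.9 and 10.6 CPM in A375 (log2 fold change -1.95 ± 0.32, adjusted p = 4.1e-05). The coactivator MAML2 and the ligase DTX3 were higher in A375 (8.03-fold and 2.95-fold).

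Of 24 YAP/TAZ and TEAD genes, 6 were higher in CHL1 and 12 were higher in A375 (median −0.62). WWTR1, which encodes the coactivator TAZ, was at 59.3 and 58.8 CPM in CHL1 and 895 and 777 CPM in A375 (log2 fold change -3.82 ± 0.27, adjusted p = 5.4e-10). TEAD4, a DNA-binding partner, was at 9.00 and 9.68 CPM in CHL1 and 34.4 and 37.4 CPM in A375 (log2 fold change -1.94 ± 0.23, adjusted p = 6.9e-07). Their classical targets CTGF, at 0.229 and 0.906 CPM in CHL1 and 19.5 and 49.2 CPM in A375 (log2 fold change -5.98 ± 0.46, adjusted p = 2.1e-09), and ANKRD1, at 0.343 and 0.239 CPM in CHL1 and 14.4 and 19.4 CPM in A375 (log2 fold change -5.82 ± 0.39, adjusted p = 2.8e-10), were low in CHL1. Higher in CHL1 were the cofactor VGLL3 (2.87 ± 0.31), F3, the initiator of coagulation (1.99 ± 0.34), TEAD2 (1.06 ± 0.25) and the kinase LATS2 (0.88 ± 0.16).

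The pathway that palbociclib targets differed in CDK6 and in part of the E2F factors. CCND1, the cyclin partner of CDK4, was at 797 and 772 CPM in CHL1 and 702 and 778 CPM in A375 (log2 fold change 0.08 ± 0.17, adjusted p = 0.68), CDK4 was at 69.8 and 64.5 CPM in CHL1 and 72.5 and 61.4 CPM in A375 (log2 fold change 0.01 ± 0.21, adjusted p = 0.98) and RB1 was at 183 and 132 CPM in CHL1 and 127 and 100.4 CPM in A375 (log2 fold change 0.48 ± 0.24, adjusted p = 0.090), and none of these was called, although RB1 passed the test without CHL1 replicate 2 (adjusted p = 0.035). CDK6, the other target kinase, was at 15.4 and 16.9 CPM in CHL1 and 518 and 638 CPM in A375 (log2 fold change -5.16 ± 0.20, adjusted p = 2.9e-13), with both A375 libraries far above both CHL1 libraries. Of the 28 CDK4/6 and RB pathway genes, 13 were higher in CHL1 and 5 were higher in A375 (median 0.41). On the CHL1 side were the activating factors E2F1, at 69.3 and 60.8 CPM in CHL1 and 24.8 and 25.4 CPM in A375, and E2F2, at 33.8 and 22.3 CPM in CHL1 and 5.55 and 4.76 CPM in A375, the cyclin CCNE2 and the CDK inhibitor CDKN1B, at 156 and 118 CPM in CHL1 and 34.7 and 27.0 CPM in A375 (log2 fold changes 1.37 ± 0.25, 2.45 ± 0.26, 1.70 ± 0.23 and 2.15 ± 0.22). On the A375 side was CDKN1A, the CDK inhibitor p21, at 25.3 and 17.7 CPM in CHL1 and 212 and 254 CPM in A375 (log2 fold change -3.43 ± 0.32, adjusted p = 3.0e-08). Beside CDK6 and CDKN1A there were E2F4 and E2F7, both known as repressors (-1.78 ± 0.24 and -0.87 ± 0.22), and the E2F7 call was lost without A375 replicate 2 (adjusted p = 0.11). CDKN2A and CDKN2B had no entry and were not analysed here.

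Proliferation genes that were called were all higher in CHL1. Whether the cells had stopped cycling was not measured here. Of 38, 23 were higher in CHL1 and 0 were higher in A375 (median 0.57). In both control comparisons 5 of these 23 were also higher in CHL1, against 57.5% of all genes higher in CHL1. The split between the controls depended on the A375 control used. With the 6-day control 15 were higher in CHL1 and 4 in A375, and with the 72-hour control 7 and 12. LMNB1, the lamin lost on senescence, was at 219 and 131 CPM in CHL1 and 51.9 and 47.4 CPM in A375 (log2 fold change 1.82 ± 0.20, adjusted p = 3.5e-07). The replication helicase subunit MCM6 was at 138 and 127 CPM in CHL1 and 46.9 and 42.3 CPM in A375 (log2 fold change 1.57 ± 0.18, adjusted p = 5.9e-07). The spindle checkpoint kinases TTK and BUB1 were at 95.9 and 80.9 CPM and at 92.8 and 87.1 CPM in CHL1, above 35.4 and 27.1 CPM and 39.6 and 36.0 CPM in A375. MKI67, the marker of cycling cells, was at 168 and 167 CPM in CHL1 and 158 and 152 CPM in A375, and this difference did not pass the test (log2 fold change 0.11 ± 0.18, adjusted p = 0.62). Against their own controls, 27 of the 38 were lower in CHL1, where 7.78% of all genes were lower, and 31 were lower in A375 than in both of its controls, where 6.16% of all genes were. The 27 in CHL1 became 15 when CHL1 replicate 2 or CHL1 control replicate 1 was left out, and the 23 higher in CHL1 became 14 without CHL1 replicate 1.

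Each treated line had secreted factors of its own. Of 37 interleukins, cytokines and their receptors, 10 were higher in CHL1 and 22 were higher in A375 (median −0.97). IL6, a main cytokine of the senescence-associated secretory phenotype, was at 21.8 and 20.3 CPM in CHL1 and 0 and 0.0534 CPM in A375, 783-fold (95% counting interval 216 to 6471) higher in CHL1 (adjusted p = 1.8e-11). The interleukin-1 genes, which act upstream of many inflammatory genes, were on the A375 side, with IL1A at 1.91 and 2.19 CPM in CHL1 and 26.7 and 43.7 CPM in A375 (log2 fold change -4.10 ± 0.37, adjusted p = 1.8e-08) and IL1B at 0.419 and 0.668 CPM in CHL1 and 6.97 and 13.3 CPM in A375 (log2 fold change -4.24 ± 0.43, adjusted p = 1.0e-07). No library of one line overlapped the other for these 3 cytokines, and the share of all genes without overlap was not computed. IL24, a cytokine of the IL-10 family, was at 0.0381 and 0.0477 CPM in CHL1 and 89.6 and 140.2 CPM in A375, 2718-fold (95% counting interval 752 to 22451) higher in A375. GDF15, a secreted stress factor, was at 0 in both CHL1 libraries and at 6.61 and 7.19 CPM in A375, at least 53.6-fold higher. TNFSF15 and CSF2 were at 0 in both CHL1 libraries and at 3.63 and 2.48 CPM and at 0.628 and 1.52 CPM in A375. The TNF receptor TNFRSF1B was at 145 and 105 CPM in CHL1 and 5.30 and 5.40 CPM in A375 (log2 fold change 4.55 ± 0.26, adjusted p = 4.6e-11), higher in CHL1 together with IL17D (2.55 ± 0.27) and TNFSF10, the death ligand TRAIL (2.61 ± 0.52).

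Chemokines were few in the count table. Of 15 with an entry, 2 were higher in CHL1 and 6 were higher in A375 (median −1.72, or −0.85 with genes at 0 set to their bounds). CHL1 had CXCL12, given above, and CX3CL1 at 2.71 and 2.43 CPM, against 0.820 and 0.321 CPM in A375 (log2 fold change 2.17 ± 0.41, adjusted p = 1.5e-04). A375 had the neutrophil-attracting IL8 (CXCL8) at 19.3 and 13.4 CPM, against 1.03 and 0.668 CPM in CHL1 (log2 fold change -4.24 ± 0.40, adjusted p = 5.6e-08), and CXCL1 at 6.04 and 5.00 CPM, against 0.419 and 0.286 CPM (log2 fold change -3.93 ± 0.47, adjusted p = 9.8e-07). The monocyte chemokine CCL2 was at 0 in CHL1 and at 1.01 and 1.31 CPM in A375, at least 9.01-fold higher, and CCL20 was at 0.0381 and 0.0477 CPM in CHL1 and 1.58 and 2.03 CPM in A375, 42.7-fold (95% counting interval 11.6 to 356) higher in A375.

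Promoters of 2 cytokines higher in A375 are shown because each holds the letters of an AP-1 element, TGANTCA, which is the same on both strands and is in capitals. They are the 250 bases before the RefSeq start (GRCh38.p14), 5′ to 3′ on the gene's strand, IL1A on the minus strand at chr2:112784494-112784743 and IL8 on the plus strand at chr4:73740319-73740568.
IL1A: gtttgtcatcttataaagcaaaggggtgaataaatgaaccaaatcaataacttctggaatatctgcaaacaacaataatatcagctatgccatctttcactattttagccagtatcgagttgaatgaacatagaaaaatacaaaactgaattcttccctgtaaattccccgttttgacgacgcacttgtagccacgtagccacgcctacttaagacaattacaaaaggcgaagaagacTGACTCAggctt
IL8: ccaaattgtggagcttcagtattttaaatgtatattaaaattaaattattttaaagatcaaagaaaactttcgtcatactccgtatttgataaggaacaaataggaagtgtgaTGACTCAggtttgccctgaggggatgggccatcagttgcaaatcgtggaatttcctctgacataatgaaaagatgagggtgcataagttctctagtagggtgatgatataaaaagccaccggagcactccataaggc
Of 29 interleukin, cytokine and receptor genes with a 300-base window, 9 held TGANTCA (31.0%), against 7.76% of all 27305 windows, and these were 8 of the 18 genes higher in A375 and 1 of the 8 genes higher in CHL1. Among 30 proteases and inhibitors with a window, 3 held it, 2 of the 13 higher in A375, 0 of the 9 higher in CHL1 and 1 gene that was not called. Among 10 chemokines with a window, 2 held it, 1 of the 3 higher in A375 and CCL24, which was not called. These matches also describe letters only, and whether AP-1 acts on these genes was not tested.

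Matrix proteases and their inhibitors leaned toward A375, with 15 of 53 higher in CHL1 and 27 higher in A375 (median −1.19). SERPINE2, an inhibitor of thrombin and plasminogen activators, was at 28.2 and 33.2 CPM in CHL1 and 7802 and 7681 CPM in A375 (log2 fold change -7.98 ± 0.26, adjusted p = 8.6e-14). ADAM19, a membrane sheddase, was at 0.343 and 0.811 CPM in CHL1 and 321 and 311 CPM in A375 (log2 fold change -9.14 ± 0.39, adjusted p = 7.5e-13), and ADAMTS12 was at 1.56 and 1.76 CPM in CHL1 and 139 and 267 CPM in A375 (log2 fold change -6.93 ± 0.34, adjusted p = 4.6e-12). The collagenase MMP8 was at 0 in both CHL1 libraries and at 20.5 and 6.71 CPM in A375, at least 106-fold higher. CHL1 had ADAMTS2, which trims procollagen, at 297 and 338 CPM, against 4.56 and 2.81 CPM in A375 (log2 fold change 6.43 ± 0.37, adjusted p = 4.5e-11). It also had the related ADAMTS14 at 13.95 and 16.2 CPM, the stromelysin MMP11 at 6.82 and 5.20 CPM and SERPINI1 at 45.7 and 55.8 CPM (log2 fold changes 4.16 ± 0.33, 2.91 ± 0.33 and 2.96 ± 0.26). MMP1, PLAU, TIMP1 and TIMP3 had no entry and were not analysed here. Against their own controls, 13 of the 53 were higher in CHL1 after CDK4/6i, where 8.13% of all genes were, and 13 were higher in A375 than in both controls, where 9.2% of all genes were.

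Collagens were divided evenly, with 14 of 38 higher in each line (median −0.03). COL11A1, a fibrillar collagen of cartilage and invasive tumours, was at 4457 and 4203 CPM in CHL1 and 1.58 and 3.29 CPM in A375 (log2 fold change 10.79 ± 0.36, adjusted p = 8.6e-14). COL14A1, which sits on collagen fibrils, was at 952 and 655 CPM in CHL1 and 3.44 and 4.33 CPM in A375 (log2 fold change 7.69 ± 0.25, adjusted p = 8.6e-14). COL25A1 and COL15A1 followed (7.31 ± 0.29 and 5.35 ± 0.40). A375 had the transmembrane COL13A1 at 34.0 and 46.5 CPM, against 0.191 and 0.239 CPM in CHL1 (log2 fold change -7.53 ± 0.53, adjusted p = 6.0e-10), the short-chain COL8A1 at 14.6 and 23.0 CPM (-5.60 ± 0.36), COL5A3 at 10.6 and 5.05 CPM (-4.79 ± 0.56) and the microfibrillar COL6A3 at 14.7 and 17.4 CPM (-3.73 ± 0.22). In A375, 11 of the 38 were higher than in both controls, against 9.2% of all genes, and in CHL1 5 were higher than in its control, against 8.13% of all genes.

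Of 73 matrix glycoproteins, proteoglycans and IGF-binding proteins, 20 were higher in CHL1 and 39 were higher in A375 (median −0.92). In both control comparisons 33 of the 39 were also higher in A375, against 54.4% of all genes higher in A375. TNC and TNR are both tenascins and were on opposite sides. TNC, the tenascin of invasive and wounded tissue, was at 0.191 and 0.477 CPM in CHL1 and 955 and 740.4 CPM in A375 (log2 fold change -11.35 ± 0.37, adjusted p = 8.6e-14). TNR, the neural tenascin, was at 18.6 and 18.1 CPM in CHL1 and 0.109 and 0.214 CPM in A375 (log2 fold change 6.78 ± 0.36, adjusted p = 6.2e-11). THBS1, an activator of latent TGF-beta, was at 1.18 and 3.77 CPM in CHL1 and 1074 and 3323 CPM in A375 (log2 fold change -9.83 ± 0.70, adjusted p = 7.8e-10), with A375 replicates that differed widely, both far above CHL1. SPP1, osteopontin, was at 0.0381 and 0 CPM in CHL1 and 34.5 and 42.5 CPM in A375, 1818-fold (95% counting interval 326 to 71850.2) higher in A375. CHL1 had the elastic fibre proteins FBN2, at 55.7 and 38.7 CPM against 0.929 and 1.36 CPM (log2 fold change 5.36 ± 0.32, adjusted p = 6.4e-11), and LOXL1, at 23.4 and 31.6 CPM against 0.765 and 0.882 CPM (log2 fold change 5.05 ± 0.35, adjusted p = 4.4e-10), and the matrilin MATN2 (5.13 ± 0.28).

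**Figure D4:**
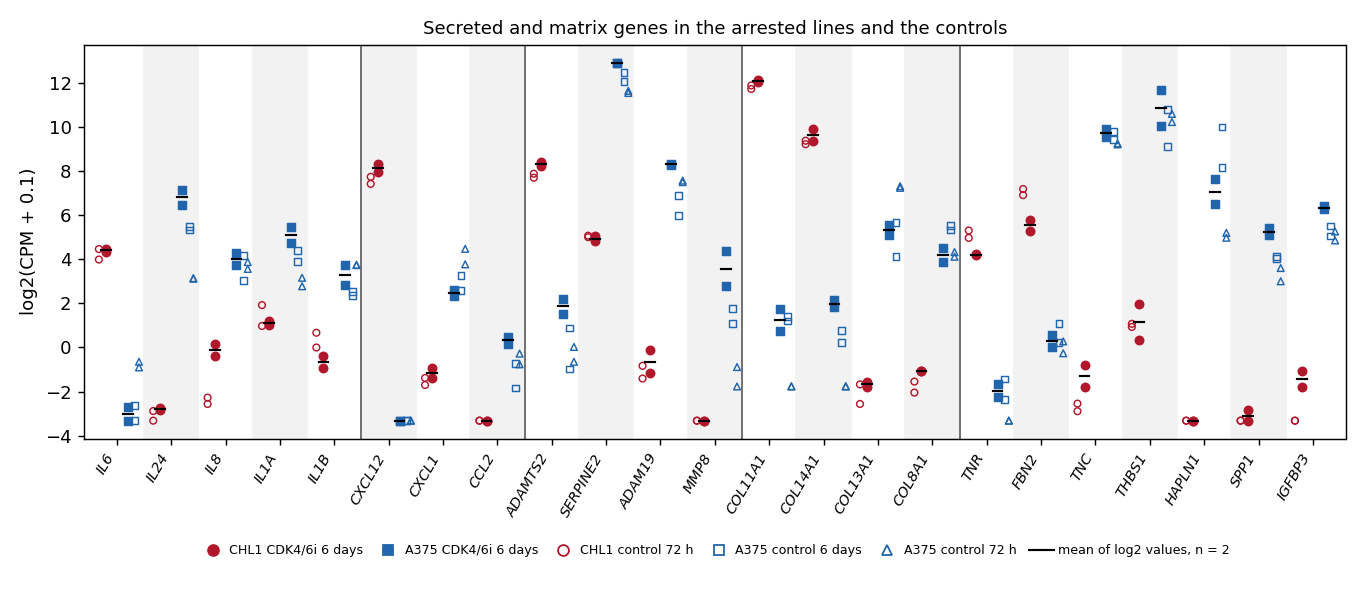
CPM per library, on a log2 scale after adding 0.1, of 23 secreted and matrix genes in the 2 CHL1 and 2 A375 libraries after 6 days of CDK4/6i, and in the 3 control groups (open symbols), with the mean of the 2 log2 values of each treated line as a bar. IL6, COL11A1 and TNR are high in CHL1, and IL1A, IL8, SERPINE2, TNC and SPP1 are high in A375.

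Most of the genes that differed between the treated lines differed the same way between their controls. The control comparisons share no library with the comparison at 6 days. Between the CHL1 control and the 6-day A375 control 12629 genes were called (61%), and between the CHL1 control and the 72-hour A375 control 12205 genes (58.9%). Of the 6056 genes higher in CHL1 after 6 days, 3482 were higher in CHL1 in both control comparisons (57.5%), and of the 6602 higher in A375, 3593 were (54.4%). Across the 15687 genes that averaged 1 CPM or more, the log2 difference after 6 days and in the controls correlated at r = 0.918 and rho = 0.769 with the 6-day A375 control and at r = 0.886 and rho = 0.803 with the 72-hour A375 control. These are correlations across genes, which share libraries and depth and are not replicates.

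**Figure D5:**
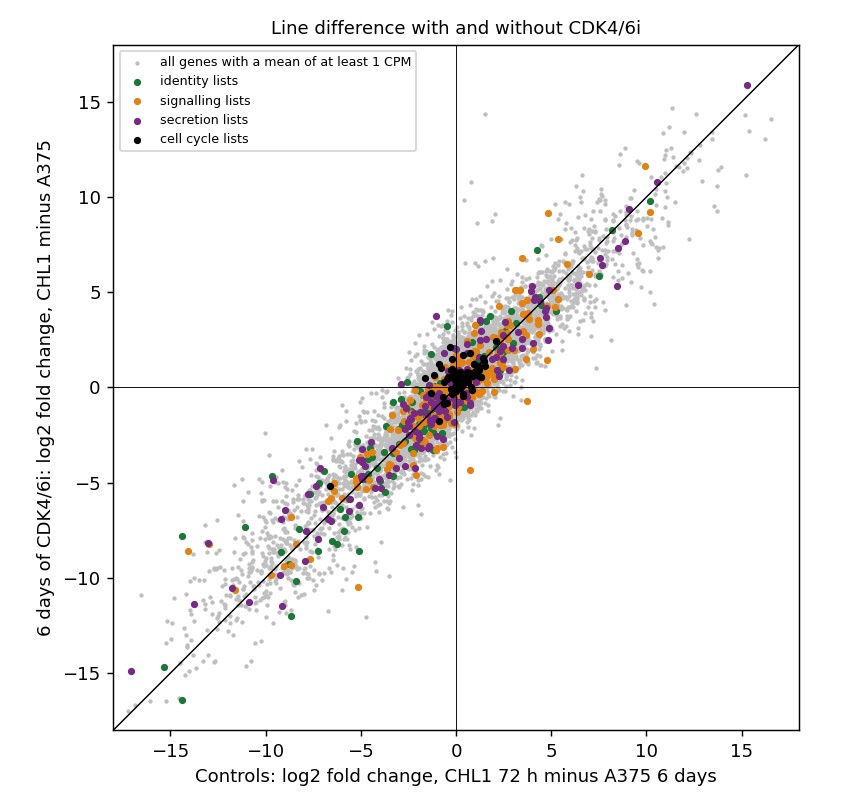
Log2 difference between CHL1 and A375 after 6 days of CDK4/6i (vertical axis) against that between the CHL1 72-hour control and the A375 6-day control (horizontal axis), 1 point per gene, with members of the identity, signalling, secretion and cell-cycle lists in colour and the other genes that averaged 1 CPM or more in grey. Most points lie along the diagonal (r = 0.918 over 15687 genes).

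In CHL1, 6 days of CDK4/6i were set against a 72-hour control, so the inhibitor and the time in culture cannot be told apart. For some genes the difference between the lines was not the same in the CDK4/6i libraries as in the controls. The change was tested as an interaction, the response of CHL1 minus the response of A375, and it was called for 4541 genes with the 6-day A375 control (21.9%, of which 12.4% of all genes toward CHL1 and 9.51% toward A375) and for 3371 genes with the 72-hour A375 control (16.3%, 6.95% toward CHL1 and 9.33% toward A375). The first of these counts ran from 2582 to 7692 when single libraries were left out. Against both A375 controls with the same sign it was called for 512 genes toward CHL1 (2.47%) and 730 toward A375 (3.53%). EDIL3, a matrix ligand of integrins, had been at 16.03 and 13.9 CPM in the CHL1 control and at 48.6 and 13.7 CPM and 7.58 and 6.16 CPM in the A375 controls, and was at 55.5 and 67.9 CPM in CHL1 and 5.27 and 3.85 CPM in A375 after CDK4/6i (interaction 4.81 ± 0.53, adjusted p = 2.6e-05 against the 6-day control, and 2.63 ± 0.52, adjusted p = 0.0018 against the 72-hour control). The synaptic adhesion gene CADM2 had been at 12.5 and 14.4 CPM in the CHL1 control and at 23.3 and 14.3 CPM and 15.4 and 12.5 CPM in the A375 controls, and was at 17.3 and 22.8 CPM in CHL1 and 1.503 and 2.81 CPM in A375 afterwards (interaction 3.70 ± 0.40, adjusted p = 2.3e-05). CHL1 ended above A375 for both genes. CADM2 fell in A375 against both controls (log2 -3.12 ± 0.30, adjusted p = 1.3e-06, and -2.69 ± 0.30, adjusted p = 1.5e-06), whereas EDIL3 rose in CHL1 (2.04 ± 0.36, adjusted p = 0.0012) and fell in A375 against the 6-day control (-2.77 ± 0.38, adjusted p = 3.3e-05) but not the 72-hour control (-0.59 ± 0.38, adjusted p = 0.25).

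Toward A375, PTGS2 was at 3.42 and 2.27 CPM in the CHL1 control and at 2.25 and 1.22 CPM and 0.483 and 0.635 CPM in the A375 controls, and it rose in A375 to its level at 6 days against both (log2 4.35 ± 0.35, adjusted p = 4.8e-07, and 5.98 ± 0.41, adjusted p = 7.0e-09, with an interaction of -5.05 ± 0.49, adjusted p = 8.5e-06 against the 6-day control). The negative WNT regulators NKD1 and AXIN2 moved the same way. NKD1 fell from 10.1 and 15.2 CPM to 4.73 and 2.58 CPM in CHL1 and rose from 0.781 and 1.13 CPM (6-day control) and 0.434 and 0.391 CPM (72-hour control) to 5.60 and 6.52 CPM in A375, and the remaining difference between the lines did not pass the test (log2 fold change -0.72 ± 0.32, adjusted p = 0.061), except without CHL1 replicate 1 (adjusted p = 0.015) and with limma voom (0.048). AXIN2 was at 3.32 and 2.00 CPM in CHL1 and 1.07 and 0.908 CPM in A375 (log2 fold change 1.44 ± 0.41, adjusted p = 0.0053, and 0.094 without CHL1 replicate 1), against 4.14 and 3.76 CPM in the CHL1 control and 0.0601 and 0.219 CPM and 0 and 0.244 CPM in the A375 controls. Of the 733 list genes, 43 had an interaction toward CHL1 and 46 toward A375 against both controls. The largest counts were 5 of 28 adhesion genes and 6 of 73 matrix glycoprotein genes toward CHL1, and 7 of 46 WNT genes and 5 of 38 collagens toward A375. Other lists had members among them too, such as 4 of 37 cytokine genes and 4 of 38 proliferation genes toward CHL1, and 4 of 33 MAPK genes toward A375.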

How the data were processed

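Poly-A RNA of the CHL1 and A375 lines was prepared with a TruSeq kit and sequenced paired-end. Per the study's methods and processing notes, the authors aligned reads to GRCh37 with HISAT2 2.0.4, counted them per gene with HTSeq (0.11.2 in the processing notes), removed genes of low count with edgeR and deposited 1 table of counts. The deposited table is called normalised in its name, but its values are whole numbers with unequal library totals and were used as raw counts. Had they been scaled before deposit, the bounds and counting intervals would not hold. A strand setting is not given in the sources used here, so overlapping and antisense genes cannot be told apart.

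Each library was assigned to a group by its label. Counts of all 20705 genes were fitted in edgeR 4.0.16 (R 4.3.3) with TMM factors, 18 libraries and 9 group means, and tested with the quasi-likelihood F test, two-sided, with Benjamini-Hochberg adjustment over all genes and a threshold of 0.05. The SE of a log2 fold change is its absolute value divided by the square root of F. CPM uses TMM-scaled library sizes. A group with 0 counts in both libraries was set to a floor of 3 counts per library for a lower bound, and with 1 to 3 counts in a group the ratio is given with its exact 95% interval, which covers counting error only. The script was tested on simulated counts.

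The members, the 21 gene lists and the tests were chosen with earlier results of these data known, so no list is independent support for its direction. Of 881 list entries, 129 had no entry in the count table and were not analysed here. Genes named are, over all genes, the 10 with the largest fold change in each direction at a mean of at least 10 CPM in the higher line, without clone-named and numbered loci, in each list the 4 largest in each direction at 1 CPM or more, a fixed set of identity, cell-cycle and secretion genes whether called or not, and the 6 list members in each direction with the largest interaction called against both A375 controls. CIITA was added. A few of these genes and 1 of the lists are not reported here. Promoter windows came from RefSeq (GRCh38.p14), matched by symbol, and were used for letters only.

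Alternatives were RLE size factors, DESeq2 1.42.0, limma 3.58.1 voom, filters on low counts, stricter thresholds, fits to 12 libraries or to the 4 compared libraries, a correction for GC content, the 72-hour A375 control, a replicate block and leaving out each library in turn.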

Additional observations from a re-analysis of the deposited data

Results flagged for a closer look

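The difference between the lines changed under CDK4/6i by a test of the difference itself, the interaction between line and treatment, against both A375 controls in 43 list members toward CHL1 and 46 toward A375, of 733, where 2.47% and 3.53% of all genes did. The 12 given here are the 6 with the largest interaction in each direction. Interactions are the log2 response of CHL1 minus that of A375, ± SE, against the 6-day A375 control, from edgeR with 2 libraries in each of the 4 groups and p adjusted over all genes. Toward CHL1, the interaction of WNT5A was 6.58 ± 1.08, adjusted p = 6.8e-04, that of IGFBP3 4.84 ± 1.33, adjusted p = 0.017, that of EPHB2 4.75 ± 1.25, adjusted p = 0.013 and that of ADAMTS10 3.80 ± 1.02, adjusted p = 0.015. WNT5A, IGFBP3 and EPHB2 were at 0 counts in both CHL1 control libraries and at 0.267 and 0.525 CPM, 0.191 and 0.382 CPM and 0.267 and 0.429 CPM after CDK4/6i, so their fitted sizes depend on the prior count, and ADAMTS10 was at 0 and 0.0355 CPM and then 0.152 and 0.239 CPM. All 4 stayed below A375 in level, where WNT5A was at 80.4 and 91.5 CPM and EPHB2 at 95.1 and 109 CPM. EDIL3 (4.81 ± 0.53, adjusted p = 2.6e-05) and CADM2 (3.70 ± 0.40, adjusted p = 2.3e-05) had counts in every library.

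Toward A375, the interaction was -5.05 ± 0.49, adjusted p = 8.5e-06 for PTGS2, -4.44 ± 0.48, adjusted p = 2.5e-05 for NKD1 and -3.35 ± 0.70, adjusted p = 0.0028 for AXIN2. It was -3.49 ± 1.14, adjusted p = 0.037 for ICAM1, a gene with at most a few counts in any CHL1 library, and -3.13 ± 0.85, adjusted p = 0.016 for COL22A1, which was at 0.464 and 2.08 CPM in A375 after CDK4/6i. The immediate-early factor EGR1 had -2.46 ± 0.68, adjusted p = 0.016, with 7.77 and 3.01 CPM in the CHL1 control and 1.45 and 0.572 CPM afterwards. The 12 were chosen among genes called with the same sign against both A375 controls. Their shared direction with the 72-hour control is therefore no separate check. When single libraries were left out, the calls of IGFBP3, EPHB2, ADAMTS10, ICAM1, COL22A1 and EGR1 were lost in at least 1 case, and those of WNT5A, EDIL3, CADM2, PTGS2, NKD1 and AXIN2 were not. Groups of 2 libraries are too small for a test for an outlying replicate within a group.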

How the results depend on the processing

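Among the 206 gene-level results no called value changed sign under an alternative. Of the uncalled ones, CDK4 (log2 fold change 0.01) was −0.01 to −0.08 with the 1 CPM filter, without A375 replicate 2 or without CHL1 replicate 1, MITF (−0.06) was 0.04 without A375 replicate 1, and NGFR (−0.61) was 0.64 without A375 replicate 2. All 28 counts stayed within 1.5 times their value with RLE size factors, DESeq2, limma voom, a filter of 1 CPM in 2 libraries and the replicate block. The interaction count of 4541 became 2704 with the 12 libraries of 1 set, and 2582 to 7692 with single libraries left out (2888 without A375 6-day control replicate 1, 7692 without its replicate 2, 2707 without CHL1 replicate 1, 2752 and 2582 without CHL1 control replicate 1 and 2), and the cause was not tested. At an absolute log2 fold change of 1 the called members fell from 18 to 8 for the CDK4/6 and RB list, from 23 to 8 for the proliferation genes and from 18 to 11 for YAP/TAZ and TEAD. At an adjusted p of 0.01 the proliferation genes numbered 15, and 14 to 21 with single libraries left out. Those lower in CHL1 than in its control numbered 15 to 22 in that way. With fewer genes tested (at least 1 CPM and a GC value), 4598 genes were higher in CHL1 and 4221 in A375 in place of 6056 and 6602, or 4868 and 4833 with a GC correction, so that the majority passed from A375 to CHL1. In these fits 4 chemokines were called in place of 8, or 5 with the correction. The split of growth factor ligands, 16 against 18, was 19 against 18 with RLE size factors and 18 against 18 with DESeq2.

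HLA-F also lost its call with DESeq2 (adjusted p = 0.073), the 12 libraries (0.064) and the 4 libraries alone (0.10). The interaction of ICAM1 lost its call with DESeq2 (0.073), the 12 libraries (0.079), the GC correction (0.081), without A375 replicate 1 (0.069), A375 6-day control replicate 1 (0.061), CHL1 replicate 1 (0.053) or 2 (0.12), and CHL1 control replicate 1 (0.072) or 2 (0.17). That of COL22A1 was lost with the GC correction (0.075), without A375 replicate 2 (0.15) and without A375 6-day control replicate 1 (0.098). That of EGR1 was lost with the GC correction (0.093), without A375 replicate 2 (0.073), CHL1 replicate 2 (0.065) and CHL1 control replicate 1 (0.12). Without CHL1 replicate 2 those of IGFBP3 (0.056) and ADAMTS10 (0.059) were lost, without CHL1 control replicate 1 those of IGFBP3 (0.081), EPHB2 (0.073) and ADAMTS10 (0.088), and without its replicate 2 those of IGFBP3 (0.077) and EPHB2 (0.070). The labels do not tie the replicate numbers to a shared batch. Deviations of same-numbered libraries correlated at 0.196 to 0.455 within the A375 72-hour set and from −0.315 to 0.455 over all numbered groups, with 0.018 between the treated and control CHL1. A replicate block over the 14 numbered libraries gave 12502 called genes in place of 12658 and lost only HLA-F (0.053). Groups of 2 libraries limit the precision throughout, and genes under 1 CPM rest on few counts.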
